A study of Rattus norvegicus with 12 samples.

Results

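The genes described here encode the proteasome and its helpers. They were taken as every non-control probe of a 44K rat array whose gene name begins with Psm, then a letter from a to g and a digit. The rule gave 49 genes of the 26214 gene names on the array, measured by 56 of its 30367 probes, and 52 of these 56 probes, for 48 genes, were bright enough to be tested. By role, the tested genes were 7 of the alpha ring, 7 constitutive and 4 inducible or thymic subunits of the beta ring, 6 ATPases and 11 other subunits of the regulatory cap, 6 assembly chaperones, 4 activators, 1 inhibitor, and 2 others: Psma3l, whose accession the RefSeq table now gives as Psma3, and Psmc3ip, a partner of Psmc3 known for its part in meiotic recombination. Psma8, an alpha subunit of the testis, was the gene with no tested probe, and no probe was named Psmg3, a chaperone. The probes lie on 18 chromosomes, and beside Psma3 and Psma3l, 3 pairs of genes have probes within 18.3 kb in rn4: Psme1 and Psme2, Psmb8 and Psmb9, and Psmb5 and Psmb11.

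The proteasome degrades proteins that carry ubiquitin chains. Its 20S core is a barrel of alpha rings around beta rings, and the beta subunits Psmb5, Psmb6 and Psmb7 cut the substrate. The 19S cap recognises the chain, removes it, and unfolds the protein with a ring of ATPases. Interferon can replace the cutting subunits by Psmb8, Psmb9 and Psmb10, which makes the immunoproteasome, and Psme1 to Psme4 encode activators that open the core without the cap. In the brain the system clears damaged proteins and turns over synaptic proteins. When proteasome activity falls, the transcription factor encoded by Nfe2l1 raises most subunit genes together.

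Total RNA of the prefrontal cortex came from female Sprague-Dawley rats on postnatal day 15, although 1 label field gives another age. Every group holds 4 animals. Controls had dams injected with saline and received saline as pups. The betamethasone group had dams given 2 injections of 0.4 mg/kg of this synthetic glucocorticoid on gestational day 15 and received saline on postnatal day 14. The betamethasone with ketamine group had dams treated in the same way and received 35 mg/kg of ketamine, a blocker of NMDA receptors, on postnatal day 14. The labels say that the pups treated on that day were ones showing infantile spasms and that litters were reduced to 4 females. They do not tell which sample showed spasms, or which animals were litter mates. All groups share an injection on the day before sampling. The comparisons ask whether prenatal betamethasone, with or without ketamine, changes these transcripts, and whether ketamine does so after betamethasone.

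Each array carried 2 animals of the same group, samples 1 and 2 or samples 3 and 4, and the control arrays lay on a slide of their own. In any comparison with the controls, the slide and the treatment cannot be told apart, while both treated groups lay on 1 slide. Between 71.4% and 81.5% of the 42877 non-control spots were well above background in each sample and none was saturated. Values are log2 intensities after normalization, and no probe's level is set against another's. A change is a difference of 2 such values, given with its standard error (SE). Bulk tissue was measured, so fewer cells of a type and less RNA per cell cannot be told apart. The defining markers of glutamatergic (5 of 5) and GABAergic neurons (3 of 3), oligodendrocytes (5 of 5), astrocytes (4 of 4) and microglia (5 of 5) were all well above background.

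Of the genes, 4 have 2 tested probes each, and the sequences of those whose probes are compared below are shown first. Psmg4, an assembly chaperone, has 2 probes that overlap by 14 bases, in capitals here, at the last 30 bases of the first and the first 30 bases of the second:
Psmg4 A_64_P084493: gaaatggagacctttcCGGAAAAGTTCTGA
Psmg4 A_64_P092143: CGGAAAAGTTCTGAgcagcagaaggaagtg
The 2 probes of Psme4, the activator PA200, do not overlap, and the first 30 of their 60 bases are:
Psme4 A_42_P492454: gagcatacccaggcacagtccctgtacaga
Psme4 A_44_P219915: tgctactaccttaagtggtttgttacagtg
The 2 probes of Psmd9, a chaperone of the cap, begin:
Psmd9 A_64_P117920: cgctttggctgcctgatgtagtctctgggt
Psmd9 A_64_P122010: tgtgaacacccaaaacttccagtctctgca
RefSeq promoters (GRCr8) were matched for 43 of the 49 genes. The 250 bases before the start were searched on both strands, and N stands for any base. The antioxidant response element core TGACNNNGC, which the Nfe2l1 factor binds, was present in 7 of the 43, or 16.3%, against 10.1% of 33469 promoters. The interferon-stimulated response element was in 5 (11.6% against 3.41%), the gamma-activated site TTCNNNGAA in 4 (9.3% against 7.67%), and the palindromic glucocorticoid response element in 1, that of Psma6 (2.33% against 0.373%). CCAAT was in 20 (46.5% against 34%). A match describes letters and is no site of binding. The promoters of Psmd1, a scaffold subunit of the cap, and Psmd9 are shown because their values lay on opposite sides of control, and that of Psmb8 as an inducible subunit. Those of Psmd1 and Psmd9 hold the antioxidant core, in capitals, and Psmb8 holds the gamma-activated site, in capitals:
Psmd1 (chr9:94157721-94157970, plus strand): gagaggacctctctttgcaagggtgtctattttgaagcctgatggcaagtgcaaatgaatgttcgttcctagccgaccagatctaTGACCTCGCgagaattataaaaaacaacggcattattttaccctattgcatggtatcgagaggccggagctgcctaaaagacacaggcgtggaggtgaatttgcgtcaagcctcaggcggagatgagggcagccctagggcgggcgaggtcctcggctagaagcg
Psmd9 (chr12:39018265-39018514, minus strand): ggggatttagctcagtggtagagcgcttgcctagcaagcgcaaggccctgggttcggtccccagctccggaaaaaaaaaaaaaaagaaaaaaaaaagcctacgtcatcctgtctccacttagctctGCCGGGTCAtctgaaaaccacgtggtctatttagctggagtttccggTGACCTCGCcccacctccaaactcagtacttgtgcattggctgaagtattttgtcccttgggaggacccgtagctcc
Psmb8 (chr20:4657032-4657281, minus strand): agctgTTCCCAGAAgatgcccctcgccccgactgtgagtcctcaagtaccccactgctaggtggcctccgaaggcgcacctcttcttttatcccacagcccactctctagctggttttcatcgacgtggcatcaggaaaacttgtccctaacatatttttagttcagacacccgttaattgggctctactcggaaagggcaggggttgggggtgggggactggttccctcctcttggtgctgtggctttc
In these sequences the core lies 165 to 157 bases before the start of Psmd1, and 124 to 116 and 77 to 69 bases before that of Psmd9. The gamma-activated letters lie 245 to 237 bases before the start of Psmb8.

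No proteasome probe passed the threshold in any comparison. With limma and adjustment over all 21533 tested probes, 0 of 52 had an adjusted p under 0.05 after betamethasone, where 0.214% of all probes did. With ketamine added, 0 of 52 passed against control, where 0.0789% of all probes did, and 0 of 52 for ketamine against saline, where 0% did. At an unadjusted p under 0.05, 9 probes of 52 (5 higher, 4 lower) stood out after betamethasone, or 17.3% beside a background of 11.4%. For betamethasone with ketamine against control there were 12 (11 higher, 1 lower), or 23.1% beside 13.9%, and for ketamine against saline 3, or 5.77% beside 3.16%. Over all probes most at this cut were higher too: 1426 higher and 1033 lower after betamethasone, and 2071 and 915 with ketamine against control. With the processed signals the counts of proteasome probes were 12 (12 higher, 0 lower), 15 (14 higher, 1 lower) and 0. These were 23.1%, 28.8% and 0%, beside 15%, 19.9% and 3.71% of all probes, whose split by direction was not counted there. With 75th percentile scaling the counts were 0, 1 and 0, beside 1.11%, 0.734% and 0.557% of all probes. The split by direction after betamethasone thus changed with the processing. The groups did not overlap for 11, 11 and 5 probes, beside backgrounds of 17.5%, 15.6% and 4.02%. Both comparisons with control share the control samples, and each comparison's values are given side by side. When the array of ketamine samples 1 and 2 was left out, the probes at an unadjusted p under 0.05 were 14, 9 and 1, or 26.9%, 17.3% and 1.92% beside 20.2%, 12.2% and 1.46% of all probes. Without the array of ketamine samples 3 and 4 they were 13, 21 and 25, or 25%, 40.4% and 48.1% beside 19.8%, 32.4% and 28.7%. In that setting 12 and 9 proteasome probes passed the adjusted threshold in the comparisons of ketamine with control and with saline, as did 3491 and 2567 of all 21510 probes (16.2% and 11.9%).

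The median log2 change of the 52 probes was 0.07 after betamethasone, 0.18 after betamethasone with ketamine and 0.13 for ketamine against saline, and that of all probes 0.03, 0.07 and 0.05. Of the 52, 30, 35 and 33 lay above 0, or 57.7%, 67.3% and 63.5%, beside 56.3%, 64.0% and 63.2% of all probes. The median 95% half-width of a single probe's change was 0.35, 0.34 and 0.35. In the median deviation by sample, ketamine samples 1 and 2 stood at 0.18 and 0.16 and ketamine samples 3 and 4 at 0.00 and 0.01, while the 4 betamethasone samples lay between -0.05 and 0.02 and the controls between -0.15 and 0.02. The median over all probes was 0.08 in ketamine sample 1, 0.09 in ketamine sample 2, and from -0.05 to 0.01 in each of the other 10.

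**Figure D1:**
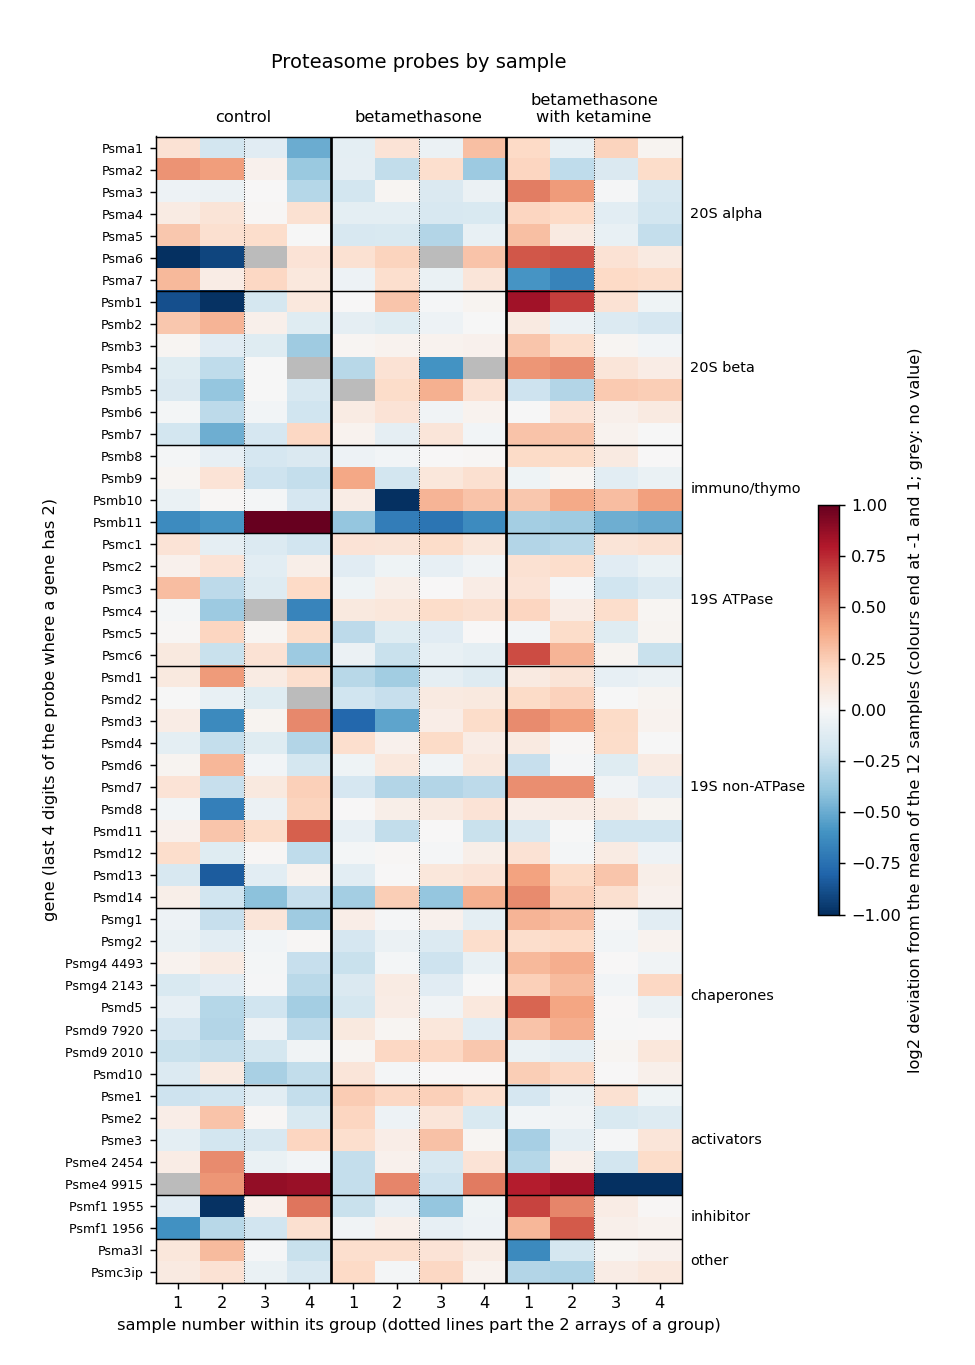
Log2 deviation of each tested proteasome probe (rows, by role) from its mean over the 12 samples (columns); red is higher, blue lower, grey no value, and colours end at -1 and 1. Many rows are red in ketamine samples 1 and 2, an array of its own, and the 2 controls with the darkest red at Psmb11 are controls 3 and 4.

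The subunits of the 20S alpha ring form the outer rings and gate the core. Of 7 tested, 3 were higher and 4 lower after betamethasone, with a median of -0.13. Psma6 had the widest change, at 12.20, 12.66 and 13.71 in 3 controls, 13.73, 13.79 and 13.86 in 3 betamethasone samples, and 14.19, 14.21, 13.72 and 13.66 in ketamine samples. Control 3 and betamethasone 3 had no value because their spots were outliers. Control samples 1 and 2, on 1 array, were low, and the fourth control lay just below the betamethasone samples. The change with ketamine against control was 1.00 (SE 0.35, adjusted p 0.314). Without control samples 3 and 4 it was 1.52 and passed the threshold (adjusted p 0.0198), as did that after betamethasone, at 1.35 (adjusted p 0.0414). Without control samples 1 and 2 only 1 control had a value, and the probe was not tested. Psma5 and Psma4 were lower after betamethasone in all 4 samples than in all controls. Psma5 was 13.04, 12.93, 12.94 and 12.76 in controls and 12.60, 12.61, 12.48 and 12.69 after betamethasone, a change of -0.32 (SE 0.15, adjusted p 0.439). Psma4 was 13.43, 13.47, 13.35 and 13.50 in controls and 13.25, 13.25, 13.19 and 13.19 after betamethasone, a change of -0.22 (SE 0.11, adjusted p 0.49). With ketamine, Psma4 was 13.56 and 13.54 in samples 1 and 2 and 13.24 and 13.16 in samples 3 and 4, so the group overlapped the controls.

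Of the constitutive beta ring, 5 of 7 lay above control after betamethasone and 6 of 7 with ketamine, with medians of 0.18 and 0.25, and 0 passed the threshold. Beside these, 56.3% and 64.0% of all tested probes lay above 0, with medians of 0.03 and 0.07. Psmb5, the chymotrypsin-like subunit, was 14.25, 14.01, 14.39 and 14.23 in controls and 14.57, 14.75 and 14.54 in the 3 betamethasone samples with a value. The groups did not overlap, and the change was 0.43 (SE 0.16, adjusted p 0.355). In the ketamine group it was 14.19 and 14.10 in samples 1 and 2, at the control level, and 14.66 and 14.64 in samples 3 and 4, at the betamethasone level. Psmb6, the caspase-like subunit, was 12.30, 12.06, 12.29 and 12.12 in controls, 12.40, 12.46, 12.29 and 12.35 after betamethasone and 12.31, 12.46, 12.37 and 12.41 with ketamine. Only the last differed without overlap, and its change was 0.20 (SE 0.12, adjusted p 0.476). Psmb7, the trypsin-like subunit, was 13.18, 12.88, 13.20 and 13.57 in controls, 13.40, 13.28, 13.49 and 13.34 after betamethasone, and 13.65, 13.64, 13.41 and 13.37 with ketamine, a betamethasone change of 0.17 (SE 0.19, adjusted p 0.794). Psmb1 was 11.31, 11.20, 12.01 and 12.29 in controls, where samples 1 and 2 were below the others, and 13.03, 12.88, 12.33 and 12.14 with ketamine. That change was 0.89 (SE 0.29, adjusted p 0.275), and 1.34 without control samples 3 and 4 (adjusted p 0.0406). It was 0.44 without control samples 1 and 2 (adjusted p 0.577), 1.25 without ketamine samples 3 and 4 (adjusted p 0.0256) and 0.53 without ketamine samples 1 and 2 (adjusted p 0.536). Psmb4 was 13.78, 14.21 and 13.47 after betamethasone and 14.50, 14.54, 14.19 and 14.13 with ketamine, a change of 0.56 (SE 0.22, adjusted p 0.91).

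The inducible subunits replace the cutting subunits in the immunoproteasome. Psmb8 was 8.10, 8.04, 7.95 and 7.98 in controls, 8.07, 8.10, 8.13 and 8.14 after betamethasone, and 8.31, 8.31, 8.21 and 8.13 with ketamine. The ketamine group did not overlap the controls, with a change of 0.22 (SE 0.08, adjusted p 0.315), or 1.17-fold. Psmb9 was 8.79, 8.90, 8.56 and 8.53 in controls, 9.15, 8.58, 8.88 and 8.92 after betamethasone, and 8.72, 8.78, 8.66 and 8.70 with ketamine, and all groups overlapped. Psmb10 was 12.17, 12.25, 12.22 and 12.07 in controls and 12.51, 12.61, 12.55 and 12.65 with ketamine, and these groups did not overlap. After betamethasone it was 12.31, 10.41, 12.58 and 12.52, so sample 2 was far below the rest. The SE of its changes was 0.57, and the adjusted p with ketamine 0.756. Psmb11, the thymus-specific subunit, has 1 tested probe, at 7.58 and 7.62 in controls 1 and 2 but 10.61 and 11.15 in controls 3 and 4. All 8 treated samples lay between 7.48 and 7.87. Its change after betamethasone was -1.64 (SE 0.74, adjusted p 0.434), and its other probe, not well above background in 3 of 4 samples of any group, lay between 7.28 and 7.63 in all samples. The higher values were in 1 array and by 1 probe. Without control samples 1 and 2 the change after betamethasone was -3.28, and it passed the threshold (adjusted p 0.0003). Without control samples 3 and 4 it was 0.0015 (adjusted p 0.998), so the call rests on 1 control array. Of 15 tested genes of interferon response and antigen presentation, 0 passed in any comparison. At an unadjusted p under 0.05 there were 1, 0 and 0, beside 11.4%, 13.9% and 3.16% of all probes. The medians of the 15 were 0.06, 0.05 and 0.04. The smallest p after betamethasone were those of Irf9, an interferon-signalling factor, at -0.68 (SE 0.30, adjusted p 0.428), and Tap2, a peptide transporter, at 0.22 (SE 0.12, adjusted p 0.514). The log2 of the summed intensity of the microglia markers, in which the brightest weighs most, ran from 13.93 to 14.27 in controls. It was 14.25 to 14.30 after betamethasone and 14.26 to 14.41 with ketamine. The part of these markers in the Psmb8 and Psmb10 values was not tested.

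**Figure D2:**
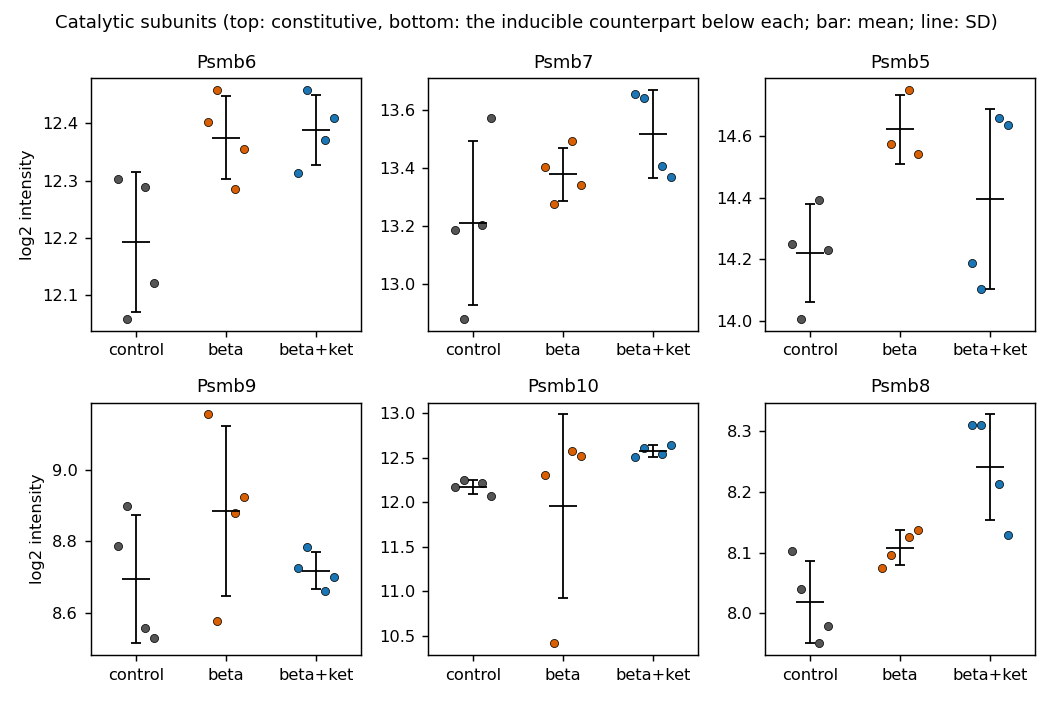
Log2 intensity of the constitutive cutting subunits (top) and the inducible subunit that replaces each (below), by group (control; beta, betamethasone; beta+ket, betamethasone with ketamine); points are samples, the bar is the mean and the line the SD. Psmb10 in the betamethasone group holds 1 sample at 10.41 and the other 3 between 12.31 and 12.58, and Psmb8 in the ketamine group lies above all controls.

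The ATPases of the 19S cap unfold the substrate. Psmc4 was 11.90, 11.55 and 11.26 in 3 controls, 12.02, 12.03, 12.10 and 12.08 after betamethasone, and 12.13, 11.99, 12.09 and 11.94 with ketamine. All 8 treated samples lay above the 3 controls, and the change was 0.50 (SE 0.15, 1.42-fold, adjusted p 0.241) and 0.49 (SE 0.15, adjusted p 0.252). Psmc5 was 15, 15.21, 15.01 and 15.18 in controls and 14.73, 14.87, 14.88 and 15 after betamethasone, a change of -0.23 (SE 0.08, adjusted p 0.313). The highest betamethasone sample and the lowest control both round to 15, so the groups were barely apart. With ketamine it ran from 14.87 to 15.17. The other 4 ATPases lay within a change of 0.21 after betamethasone, in either direction. Psmc6 was 11.56 and 11.24 in ketamine samples 1 and 2, 10.93 and 10.68 in ketamine samples 3 and 4, and between 10.53 and 11.04 in the other groups.

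Among the non-ATPases Psmd4, a ubiquitin receptor of the cap, had the smallest p of all members in both comparisons with control. It was 13.49, 13.35, 13.47 and 13.29 in controls, 13.76, 13.63, 13.77 and 13.66 after betamethasone, and 13.67, 13.60, 13.77 and 13.59 with ketamine. Every treated sample lay above every control. The change was 0.31 after betamethasone (SE 0.07, 1.24-fold, adjusted p 0.142) and 0.26 with ketamine (SE 0.07, adjusted p 0.226). Its probe lies at rn4 chr2:189933368-189933427 on the minus strand. Psmd1 was 14.69, 15.02, 14.68 and 14.76 in controls, 14.32, 14.25, 14.50 and 14.46 after betamethasone, and 14.68, 14.72, 14.51 and 14.53 with ketamine. The betamethasone samples lay below both other groups, with a change of -0.41 against control (SE 0.13, adjusted p 0.265). Psmd11, a subunit of the cap's lid, was 11.47, 11.70, 11.61 and 12.02 in controls, 11.34, 11.18, 11.43 and 11.20 after betamethasone, and 11.27, 11.42, 11.22 and 11.23 with ketamine. Its changes were -0.41 and -0.42 (SE 0.18 for both, adjusted p 0.421 and 0.34), and the groups did not overlap. Psmd7, a partner of the deubiquitinase Psmd14, was 11.87, 11.74, 11.74 and 11.78 after betamethasone and 12.50, 12.51, 12.00 and 11.92 with ketamine, a change of 0.45 (SE 0.18, 1.37-fold, adjusted p 0.91). The controls ran from 11.80 to 12.28 and overlapped both groups.

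**Figure D3:**
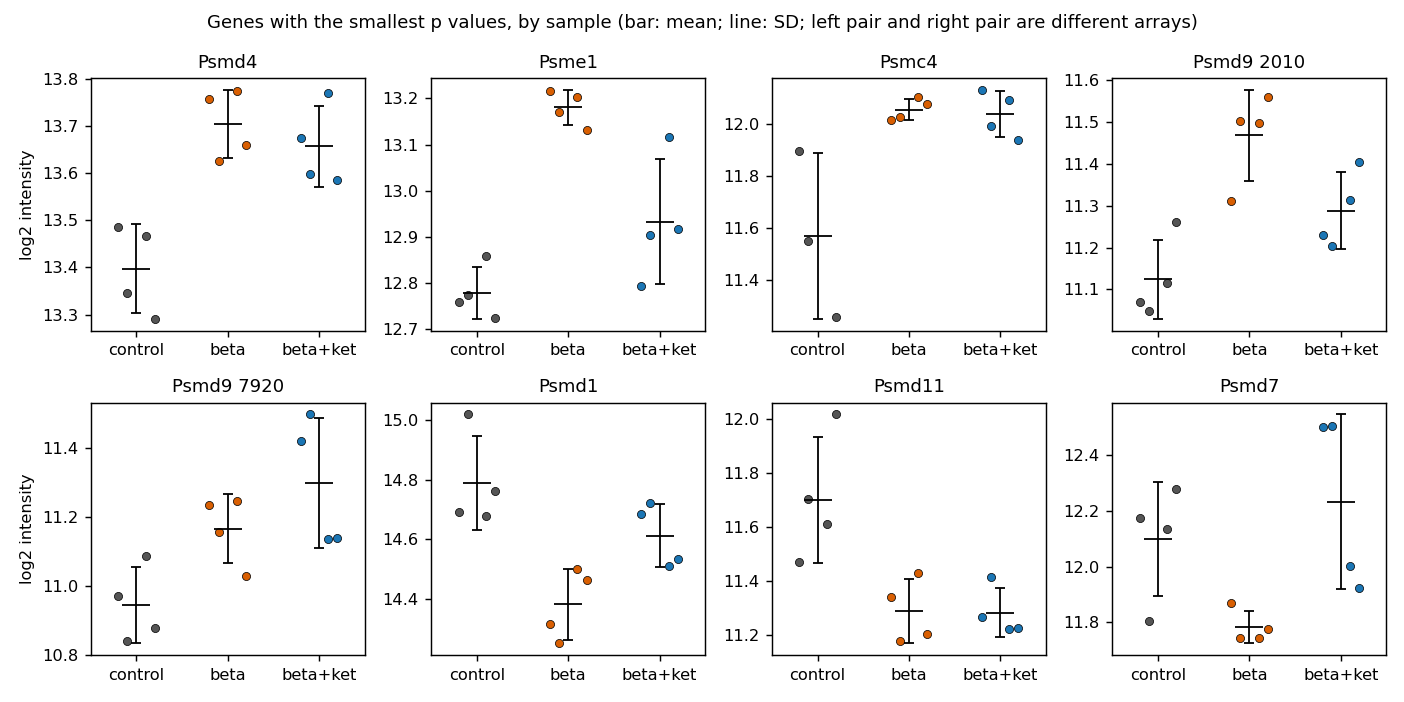
Log2 intensity by group (control; beta, betamethasone; beta+ket, betamethasone with ketamine) for probes with small p values; points are samples, the left pair and the right pair of a group lie on different arrays, the bar is the mean and the line the SD. Psmd4 at 13.59 or above and Psmc4 at 11.94 or above in every treated sample lie above the controls, and Psmd7 with ketamine is split by array.

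The assembly chaperones, which guide the ring and the cap together, lay above control in 7 of 8 probes after betamethasone and 8 of 8 with ketamine, with medians of 0.15 and 0.27. These probes measure 6 genes, and none passed the threshold. Of all tested probes, 56.3% and 64.0% lay above 0, with medians of 0.03 and 0.07. Most chaperone probes were higher in ketamine samples 1 and 2 than in samples 3 and 4, by 0.52 for Psmd5 and 0.38 for Psmg1. Only A_64_P122010 of Psmd9 was lower there (-0.14). The probe A_64_P122010 of Psmd9 was 11.07, 11.05, 11.12 and 11.26 in controls, 11.31, 11.50, 11.50 and 11.56 after betamethasone, and 11.23, 11.20, 11.31 and 11.41 with ketamine. Its change was 0.34 after betamethasone (SE 0.10, adjusted p 0.227) and -0.18 for ketamine against saline (SE 0.10). The other probe, A_64_P117920, was 10.97, 10.84, 11.09 and 10.88 in controls, 11.23, 11.16, 11.25 and 11.03 after betamethasone, and 11.42, 11.50, 11.13 and 11.14 with ketamine, so the probes went apart with ketamine: 0.13 for the second (SE 0.12). The Psmg4 probe A_64_P084493 was 10.96, 11.01, 10.91 and 10.697 in controls, 10.704, 10.91, 10.72 and 10.85 after betamethasone, and 11.25, 11.29, 10.93 and 10.89 with ketamine. Ketamine samples 1 and 2 were the highest, samples 3 and 4 lay within the control range, and its change for ketamine against saline was 0.29 (SE 0.14, adjusted p 0.91). The overlapping Psmg4 probes gave 0.09 and -0.10 after betamethasone and 0.23 and 0.29 for ketamine against saline. Psmd5 was 9.92, 9.72, 9.80 and 9.66 in controls and 10.59, 10.40, 10 and 9.95 with ketamine, where every sample lay above every control (0.46, SE 0.18, adjusted p 0.323).

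Of the activators, Psme1, the PA28 alpha subunit, was 12.76, 12.77, 12.86 and 12.72 in controls, 13.22, 13.17, 13.20 and 13.13 after betamethasone, and 12.79, 12.90, 13.12 and 12.92 with ketamine. Betamethasone samples lay above all others, 0.40 above control (SE 0.10, 1.32-fold, adjusted p 0.176), and the ketamine group was 0.25 below them (SE 0.10, adjusted p 0.91). Psme1 and Psmd4 both passed the threshold after betamethasone with either ketamine array left out, with adjusted p from 0.0249 to 0.0379. These arrays hold no sample of that comparison, so the changes stayed at 0.40 and 0.31 while the SE fell. In the same settings 2.38% and 2.03% of all probes passed, beside 0.214% in the main fit. Neither gene passed when any of the other 4 arrays was left out (adjusted p of 0.144 or above). Psme2, the PA28 beta partner of Psme1, lies 7.32 kb away on chr15 in rn4. It was 11.97, 12.19, 11.92 and 11.76 in controls, 12.12, 11.86, 12.03 and 11.76 after betamethasone, and 11.88, 11.87, 11.75 and 11.78 with ketamine. Its change after betamethasone was -0.02 (SE 0.15), with an interval from -0.36 to 0.32. Psme3, PA28 gamma, was 10.86, 10.78, 10.80 and 11.18 in controls, 11.12, 11.02, 11.25 and 10.98 after betamethasone, and 10.63, 10.87, 10.95 and 11.08 with ketamine. The groups of both genes overlapped. Psme4, PA200, ran from 10.56 to 11.10 in controls by its 10-spot probe, and was 10.39, 10.67, 10.47 and 10.77 after betamethasone, and 10.34, 10.68, 10.44 and 10.81 with ketamine. Its other probe, with a single spot, was 10.44 and 10.49 in ketamine samples 1 and 2, 7.78 and 7.14 in samples 3 and 4, and from 9.41 to 10.53 elsewhere, with control 1 missing. That probe was well above background in only 2 of the 4 ketamine samples, so the size of a fall there is not well measured. The probes differed in 1 array, and without ketamine samples 1 and 2 the second gave -2.87 against control (adjusted p 0.0303). Without ketamine samples 3 and 4 it gave 0.17 (adjusted p 0.739), so that call rests on 1 ketamine array. The inhibitor Psmf1, PI31, was 10.82, 11.14, 11.23 and 11.58 in controls by probe A_64_P021956, 11.38, 11.47, 11.34 and 11.37 after betamethasone, and 11.75, 12.03, 11.47 and 11.46 with ketamine. The control range overlapped the others, and the change with ketamine was 0.49 (SE 0.18, adjusted p 0.314) and 0.44 by the other (SE 0.39). After betamethasone its probes gave 0.20 and -0.05.

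**Figure D4:**
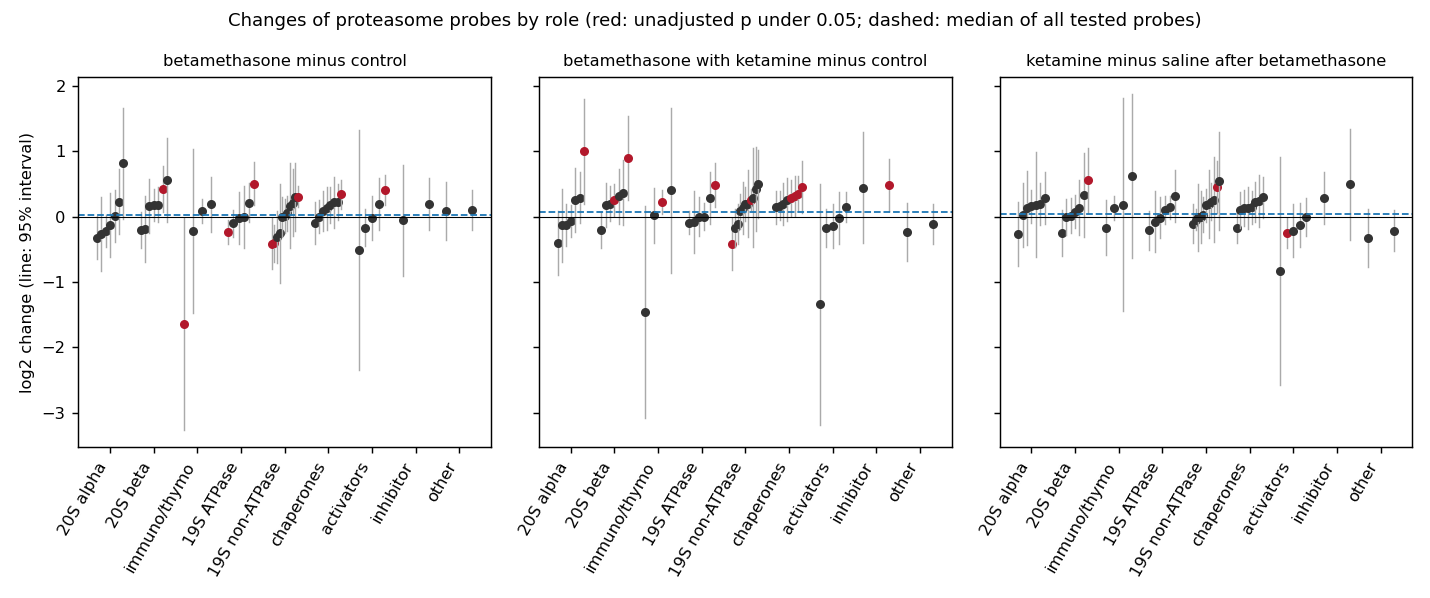
Log2 change of each tested probe with its 95% interval, by role, in the 3 comparisons; red points have an unadjusted p under 0.05 and the dashed line is the median of all tested probes. The chaperones lie above 0 with ketamine against control, from 0.14 to 0.46, as do 64.0% of all tested probes.

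The arrays of the ketamine group differed, as did those of the controls. In the 46 probes with values in all 12 samples, samples 1 and 2 lay a median of 0.20 above the betamethasone mean, with 32 of 46 higher, and samples 3 and 4 a median of 0.01, with 26 of 46 higher. The 2 arrays differed by more than 0.5 for 7 probes, or 15.2%, against 11.6% of 20850 probes. In the control group 5 probes differed so, or 10.9% against 10.1%, and in the betamethasone group 2, or 4.35% against 2.33%. The median difference within a ketamine array was 0.08 and between the arrays 0.21, beside 0.07 and 0.19 for all probes. For the control arrays it was 0.18 within and 0.19 between. Psma7 was 13.37 and 13.30 in ketamine samples 1 and 2 and from 13.89 to 14.29 in the other 10. The probe of Psma3 was higher there, at 12.08 and 11.99 against 11.28 to 11.59 in the other 10, while that of Psma3l was lower in sample 1, at 12.32, and lay at 12.78 in sample 2, against 12.74 to 13.27. Of the spots of that array, 4.5% lay in areas where the signal departed from the other arrays. Of its 119 proteasome spots, 3 did, 1 of 10 each for Psma5, Psmd6 and Psme3, and all 3 were already left out as outliers. Without that array the median change of the 52 probes was 0.01 for ketamine against saline and 0.10 against control.

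**Figure D5:**
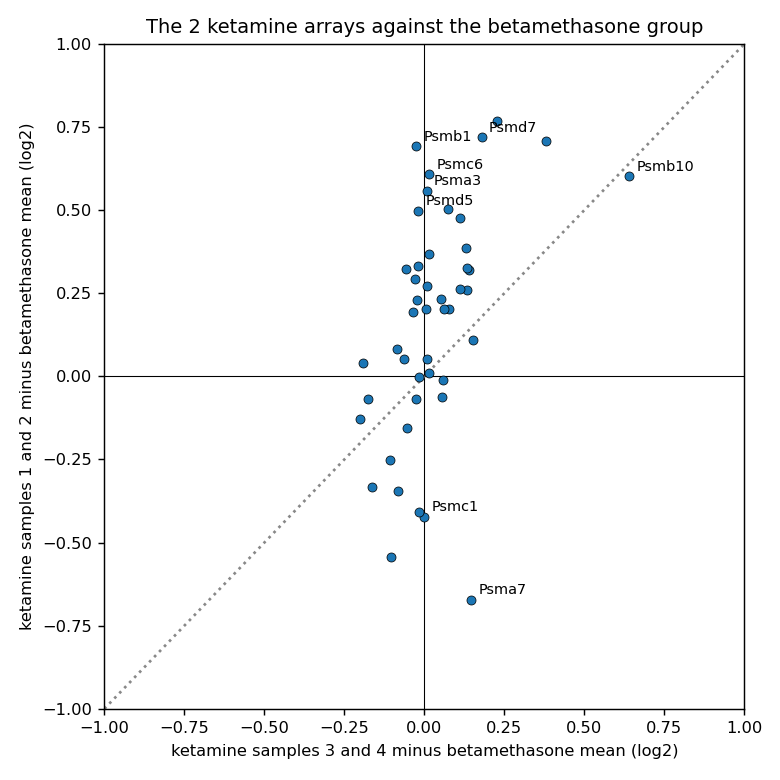
Each of 46 proteasome probes by its difference from the betamethasone mean in ketamine samples 3 and 4 (horizontal, log2) and ketamine samples 1 and 2 (vertical, log2); the dotted line marks equality. The points spread widely along the vertical axis, with Psma7 lowest, and most lie near 0 along the horizontal one, where Psmb10 and Psmd3 lie farthest out. The betamethasone mean of Psmb10 is lowered by sample 2, at 10.41.

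The genes that feed or attach to the proteasome were not called either. Of 27 tested, 0 passed in any comparison. At an unadjusted p under 0.05 there were 7, 3 and 1 of the 27, beside 11.4%, 13.9% and 3.16% of all probes. The medians of the 27 were -0.04, -0.01 and 0.07. Ufd1, which delivers unfolded ubiquitinated proteins with Vcp, gave the smallest p after betamethasone (0.53, SE 0.14, adjusted p 0.189), then Ubqln2, a shuttle factor (-0.30, SE 0.08, adjusted p 0.212). Ubqln2 and Pomp, a maturation chaperone, led with ketamine against control (-0.28 and 0.36). Rps27a, a ubiquitin fusion, led for ketamine against saline at -1.27 (SE 0.57), with an SD of 1.47 in the ketamine group, and Usp14 followed at 0.46 (SE 0.22). Nfe2l1 was among the 27 and gave -0.37 after betamethasone (SE 0.15, adjusted p 0.384). It gave -0.13 with ketamine against control (SE 0.15) and 0.24 for ketamine against saline (SE 0.15). Of the oligodendrocyte markers, 5 of 5 were lower after betamethasone, with a median of -0.66, and 5 of 5 with ketamine. The log2 of their summed intensity was 15.24 to 16.36 in controls, 14.34 to 15.61 after betamethasone and 14.91 to 16.05 with ketamine. Mbp, the brightest of them, weighs most in this sum. The 3 endothelial markers were higher in 3 of 3 in every comparison, with medians of 0.19, 0.39 and 0.15. An unadjusted p under 0.05 was reached by 0, 2 and 0 of them, beside 11.4%, 13.9% and 3.16% of all probes. The log2 of the summed intensity of the endothelial markers, in which the brightest weighs most, was 11.48 to 12.47 in controls. It was 12.53 to 12.76 after betamethasone and 12.59 to 13.05 with ketamine, so the treated groups lay above all controls. Cldn5, a tight junction gene, gave 0.61 (SE 0.33, adjusted p 0.513) and 0.76 (SE 0.33, adjusted p 0.345) against control. No marker of oligodendrocytes or endothelium passed the threshold, and their part in the proteasome values was not tested. Of the markers of neurons, astrocytes, microglia, choroid plexus, blood and striatum, 0 passed in any comparison. The microglia markers were higher in 4, 5 and 4 of 5, with medians of 0.29, 0.27 and 0.10, beside 56.3%, 64.0% and 63.2% of all probes. In each comparison 1 of 4 astrocyte markers had an unadjusted p under 0.05. So had 1, 2 and 1 of the microglia markers and 2, 2 and 0 of the oligodendrocyte markers, beside the shares of all probes given above.

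Across the 12 samples the mean pairwise Pearson correlation was 0.06 among 46 proteasome probes and 0.04 among all 20850, a description, since the samples share arrays and groups. It was 0.15 among the constitutive beta subunits and -0.05 among the ATPases. For the 7 probes printed in 10 spots, the median SD between single spots of 1 sample was 0.16 to 0.26. The SD between samples of a group was 0.12 to 0.21, but it was taken over values already averaged over the spots. Because averaging lowers the part of spot noise in a sample's value, these SDs do not tell which source of spread was larger.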

How the data were processed

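Prefrontal cortex RNA of 12 rats was measured on 6 Agilent 2-colour arrays. Per the file headers, the deposited channel signals are intensity values in scanner units, from Feature Extraction 11.5.1.1 for the control slide and 11.0.1.1 for the other, while the submitters' processing notes name Feature Extraction 10.7.3.1. A deposited value table holds, per its own values, a ratio of each background-subtracted signal to the column median. Its columns for control samples 1 and 2 equal the scanner data of control samples 3 and 4, and the reverse, so that table serves as an alternative alone. Processed signals are deposited too, as intensity values after the software's own background and dye steps, per the file headers. Probe coordinates are rn4, per the file headers.

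Mean foreground was corrected with median local background by normexp (offset 50), control and outlier spots were left out, and loess within arrays and Aquantile between them followed. Each channel counted as a sample, and spots of a probe were averaged. A probe was tested where 3 or more of the 4 samples of any group had it well above background. Log2 values were fitted with limma 3.58.1 under R 4.3.3 and statmod 1.5.0, using a dye term and the array as random block (estimated correlation 0.555), all 12 samples in 1 model, and 2-sided p values were adjusted by Benjamini-Hochberg at 0.05. Nothing in the labels names separate litters, so p values measure only the spread between these samples. Where a spot was an outlier the sample has no value and the fit used the rest. The precision is limited by 2 arrays per group.

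The genes given sample by sample were those past the threshold, the 5 with the smallest p in each comparison, Psmb5 to Psmb10 and Psme1 to Psme4; others were chosen after their values were seen. The members and lists were chosen with earlier results of these data known. The marker list of 1 cell type is not reported here. The fit was tested on simulated data. Alternatives are given in the closing section.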

Additional observations from a re-analysis of the deposited data

Results flagged for a closer look

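A sample stood far from the other 3 of its group in 3 of 148 groups of proteasome values, and chance flags about 1 group in 20. Psmb10 was 10.41 in betamethasone sample 2, with the others from 12.31 to 12.58. Psmb1 was 12.46 in betamethasone sample 2, with the others from 12.18 to 12.21. Psmd10, a chaperone of the cap, was 11.11 in betamethasone sample 1, with the others from 10.97 to 10.99.

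A probe left out of the main fit as too dim also gave a signal in 1 array. Psma8, an alpha subunit of the testis, read 8.96 and 8.50 by probe A_64_P124080 in ketamine samples 1 and 2, with controls between 7.31 and 7.47. These samples share 1 array, and the other probes of Psma8 read 7.15 to 7.55 in all samples.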

How the results depend on the processing

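The count of proteasome probes past the threshold stayed at 0 in all 3 comparisons with the processed signals, the 75th percentile scaling, 1 probe per gene, array means, masked areas, the re-centred value table (chosen after seeing the data), the replicate block and each single sample left out. It was 1, 4 and 1 after betamethasone with no filter on dim probes, no array block and only the groups compared, and 1 against control with ketamine with no array block. Over all probes the counts were 88 of 30080, 1033 and 215 of 21533, and 862. The deposited value table, scaled by column medians with no loess or Aquantile step, gave 50 and 49 of 51, all lower. Of all 16143 probes, 15383 and 15146 passed there (95.3% and 93.8%). The medians were -1.05 and -0.92, beside -1.11 and -1.03 for all probes. In that table Psmd4, Psme1, Psmd9 and Psmc4 read -0.74, -0.67, -0.75 and -0.61 after betamethasone. Psmd4, Psmc4, Psmb1, Psmd9 and Psmf1 read -0.81, -0.64, -0.20, -0.78 and -0.60 with ketamine. Leaving out arrays gave counts of 1 without controls 1 and 2, 1 without controls 3 and 4, and 2 without either ketamine array after betamethasone. With ketamine against control they were 1, 2, 1 without ketamine samples 1 and 2, and 12 without samples 3 and 4, and 9 in that last setting for ketamine against saline. Over all probes the counts in the same settings were 305, 379, 512 and 437 after betamethasone, 233, 410, 112 and 3491 with ketamine against control, and 2567 against saline. The median with ketamine was 0.10 without controls 1 and 2 and without ketamine samples 1 and 2, and 0.10 to 0.19 with single samples left out. The median for ketamine against saline was 0.027 with 75th percentile scaling, where all probes moved to 0.35, 0.0054 without ketamine samples 1 and 2, and 0.22 without samples 3 and 4. The cause was not tested. Replicate numbers did not pair the samples. Correlations of same-numbered samples, which share a dye, ran from -0.06 to 0.10, and from -0.14 to 0.04 with the dye effect removed. The replicate block gave medians of 0.07, 0.18 and 0.13 and 0 calls. A slide term could not be fitted against control.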
